A study of Caenorhabditis elegans with 2 samples.

Results

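The DRM complex genes are the 8 genes lin-9, lin-37, lin-52, lin-53, lin-54, lin-35, efl-1 and dpl-1, out of 19973 protein-coding genes on the nuclear chromosomes of Caenorhabditis elegans. They were selected with the peaks of these same lists known, so their signals, ranks and peak positions are given as a description and were not tested. The data were chromatin immunoprecipitation with sequencing (ChIP-seq), which maps where a protein sits on the genome. The protein was ZTF-29, a putative zinc finger transcription factor, carrying a TY1::EGFP::3xFLAG tag inserted by CRISPR at its own gene on chromosome III (strain RW12283). A single group was collected, whole mid-stage embryos from egg bleaching at an age of 0 hour, as 2 biological replicates, with sheared DNA of 200 to 800 bp and an antibody against GFP. No untagged or untreated group was analysed here, and the read depth is unknown.

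DRM, also called DREAM, is a conserved complex that holds cell cycle genes and, in the worm, germline genes in a repressed state in somatic cells. It joins a pocket protein of the retinoblastoma family and an E2F-DP dimer to a core of LIN proteins called MuvB. In the worm these genes belong to the class B synthetic multivulva genes (synMuv B), whose loss, together with that of a class A gene, gives extra vulvae. DRM itself is known to bind DNA through the E2F-DP dimer and through LIN-54, which recognises the cell cycle genes homology region (CHR) word TTTGAA and close forms of it.

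Each gene was searched from 1000 bp upstream of its annotated start to its end, in 4 pairs of lists. A pair is a long ranked list of candidate peaks and the thresholded list of peaks taken from it, called listed peaks here. The conservative pair (814 listed peaks, 54900 candidates) and the full pair (1114 listed, 54286 candidates) were made from both replicates. Replicate 1 had 466 listed peaks and 38705 candidates, and replicate 2 had 802 and 43139. The irreproducible discovery rate (IDR) of a candidate is the expected share of peaks that would not recur among those ranked at least as high, and listed peaks had an IDR of at most 0.01. The signal of a peak is the authors' value on a scale that is not stated, so it was set side by side only within a list.

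ZTF-29 peaks were listed at 2 of the 8 DRM genes, lin-9 and lin-52, in both the conservative and the full list. The same was true of 3.4% of all protein-coding genes in the conservative list and of 4.45% in the full list. Since the members were selected on these lists, nothing is read from the difference. In the single replicates, 1 of the 8 genes (lin-9) had a listed peak in replicate 1, against 2.12% of all genes, and 0 of the 8 had one in replicate 2, against 3.24%. A candidate of any strength was present at 7 of the 8 genes in the conservative list and at 8 of 8 in the full list, against 71.1% of all genes in each. It was present at 7 of 8 genes in replicate 1, against 68.7%, and at 8 of 8 in replicate 2, against 70.7%. With a looser limit, an IDR of at most 0.05, 5 of the 8 genes had a conservative candidate, against 5.92% of all genes. Those 5 were lin-9, lin-52, lin-53, lin-54 and lin-35.

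The conservative candidates upstream of the starts had the higher median signal, and their signals overlapped with those of the candidates inside the genes. Of 18 candidates at the DRM genes, 7 lay upstream, with signals of 30.9 to 81.6 and a median of 66.3, and 11 lay inside, with signals of 6.71 to 61.5 and a median of 23.9. Over all protein-coding genes the medians were 26.7 for 11721 pairs of a gene and an upstream candidate and 25.6 for 36700 pairs with a candidate inside. A candidate near several genes was counted for each of them. The 5 DRM candidates with an IDR of at most 0.05 were all upstream, and 10 of the 18 had an IDR over 0.6. No share over all genes was counted for either, so nothing is read from these counts. Among those 5, the lin-52 summit lay in a coding exon of ZK632.9 and the lin-54 summit in the 5' UTR of rpl-12. The map of the 8 genes shows this layout.

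**Figure D1:**
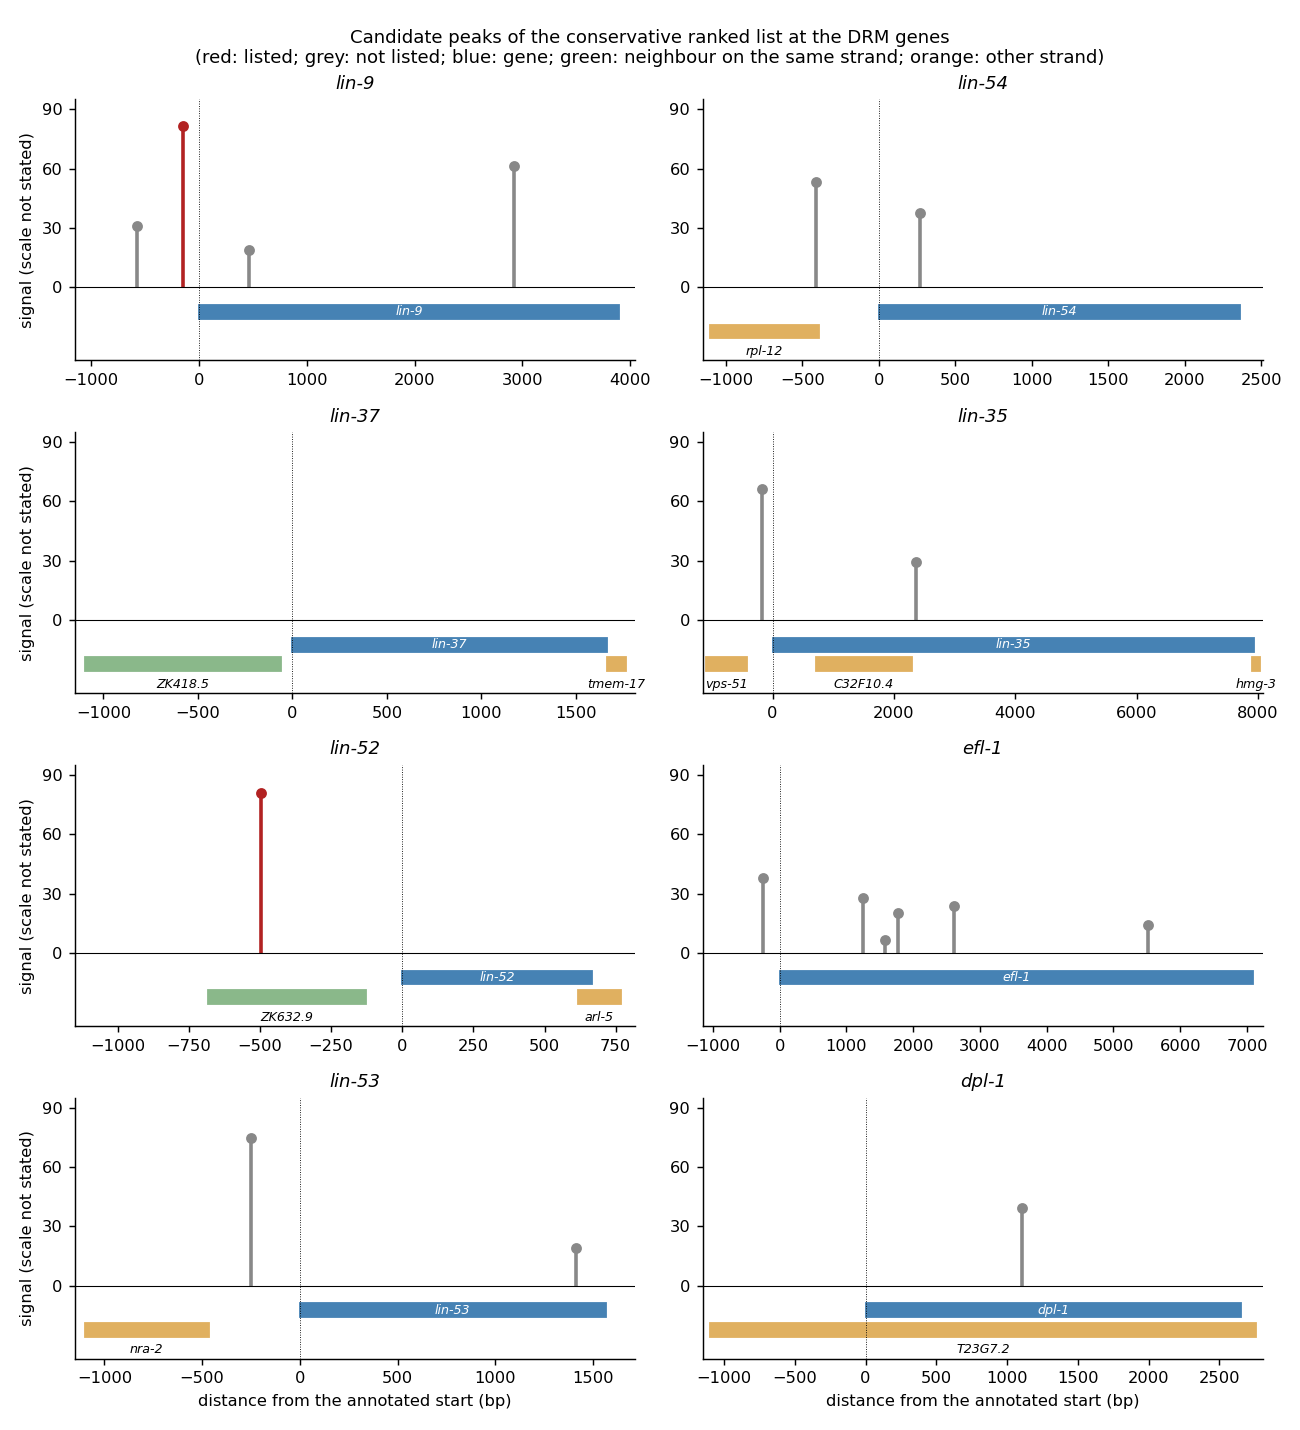
Conservative candidates at each DRM gene, with the distance of the summit from the annotated start on the horizontal axis (bp, negative upstream) and the deposited signal as the height of each line (scale not stated). The listed peaks (red) are at lin-9 (81.6) and lin-52 (81.1); the other candidates (grey) were not listed, and lin-37 had none.

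Among the MuvB genes, lin-9 (WBGene00002998, chrIII:8900237-8904131, minus strand), which encodes a structural subunit of the core, had the highest signal of the 8. Its listed conservative peak at chrIII:8904140-8904415 had its summit 147 bp upstream of the start, between genes. The nearest protein-coding start on the other strand upstream, that of the proton pump gene unc-32, was 1337 bp from the summit. The signal was 81.6, rank 607 of 814 listed peaks and rank 826 of 54900 candidates, with an IDR of 0.00383. In the full list the IDR was 0.00164. In replicate 1 the peak was listed with a signal of 40.1, rank 583 of 38705 candidates, an IDR of 0.00688 and a summit 151 bp upstream. In replicate 2 the candidate had a signal of 42.4, rank 1600 of 43139, an IDR of 0.111 and a summit 171 bp upstream, and it was not listed. The summits of the replicates were thus 20 bp apart, and the peaks overlapped. A further candidate lay in an intron of lin-9, 2918 bp downstream of the start, with a conservative signal of 61.5 and an IDR of 0.114. In replicate 2 that intron candidate (42.1) was almost level with the upstream one, while in replicate 1 it was much the weaker, at 18.3.

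The gene lin-52 (WBGene00003035, chrIII:9824083-9824750, minus strand) encodes the small subunit that links the pocket protein to the core. Its listed conservative peak at chrIII:9825107-9825382 had a signal of 81.1, rank 618 of 814 listed peaks, and an IDR of 0.00424. The full list gave an IDR of 0.00285. The summit was 495 bp upstream of lin-52, in a coding exon of ZK632.9, an uncharacterized gene on the same strand that ends 126 bp before lin-52 begins. The same summit was 187 bp downstream of the start of ZK632.9, so the peak was closer to that start than to the start of lin-52. The candidate was just short of the limit in replicate 2, where it had a signal of 49.7, rank 1055 of 43139 and an IDR of 0.0107. In replicate 1 it had a signal of 31.1, rank 1083 of 38705 and an IDR of 0.328. It was listed in neither replicate, although the summits were 15 bp apart.

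The DNA under these 2 listed peaks is given here from the RefSeq copy of the ce11 assembly, because these peaks carry the listed signal at the DRM genes. The strand is that of the gene, minus for both, and capitals mark CHR words (TTTGAA or TTCGAA) and E2F words (TTTCCCGC, TTTGGCGC, TTTGCCGC or TTTCGCGC) on either strand.
lin-9 whole peak, chrIII:8904140-8904415: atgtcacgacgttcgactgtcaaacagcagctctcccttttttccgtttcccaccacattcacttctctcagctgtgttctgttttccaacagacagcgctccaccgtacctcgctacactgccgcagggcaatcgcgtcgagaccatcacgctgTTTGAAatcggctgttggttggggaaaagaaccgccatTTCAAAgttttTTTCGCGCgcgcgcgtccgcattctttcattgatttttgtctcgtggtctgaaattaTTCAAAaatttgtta
lin-52 summit window, chrIII:9825195-9825295: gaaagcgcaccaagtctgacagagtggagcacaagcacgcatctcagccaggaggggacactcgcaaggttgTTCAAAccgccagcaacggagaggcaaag
The whole lin-9 peak, 276 bp long, held 3 CHR words and 1 E2F word, and no share over all peaks was counted at that length. The 101 bp around the lin-9 summit held 1 of those CHR words and no E2F word. The 101 bp around the lin-52 summit, coding sequence of ZK632.9, held 1 CHR word. Both 101 bp windows had a GC content of 57.4%, against a median of 50.5% in windows of that length at the 814 listed peaks and 40.6% at all 54900 candidates.

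The gene lin-54 (WBGene00003037, chrIV:13241044-13243401, plus strand) encodes the DNA-binding subunit of the core. Its upstream candidate had a conservative signal of 53.2, rank 2681 of 54900, an IDR of 0.0343 and a summit 410 bp upstream. That summit lay 17 bp inside the divergent gene rpl-12, a ribosomal protein gene whose start is separated from that of lin-54 by 392 bp. In replicate 1 the candidate had a signal of 36.9, rank 691 of 38705 and an IDR of 0.0204. In replicate 2 it had a signal of 30.4, rank 5474 of 43139 and an IDR of 0.814. Its summits were 361 bp upstream in replicate 1 and 476 bp upstream in replicate 2, a gap of 115 bp, the widest of the 5 genes with an IDR of at most 0.05. A weaker conservative candidate (37.3) lay 267 bp inside lin-54.

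The gene lin-37 (WBGene00003022, chrIII:7070890-7072552, minus strand), which encodes another subunit of the core, had candidates in the full list and in replicate 2, and none in the conservative list or in replicate 1. The full list had one inside the gene, 978 bp downstream of the start with a signal of 21.9, and one 876 bp upstream with a signal of 17.9, both with an IDR of 0.874. Replicate 2 had signals of 16.5 and 16.1 at about the same places, with an IDR of 0.907 for both. The upstream summit of the full list was in an intron of ZK418.5, a gene on the same strand that ends 60 bp before lin-37 begins.

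The gene lin-53 (WBGene00003036, chrI:9618196-9619760, minus strand) encodes a histone-binding protein that other chromatin complexes also contain. Its upstream candidate had a conservative signal of 74.7, rank 1013 of 54900, and its summit was 251 bp upstream. The IDR was 0.0244 in the conservative list and 0.0118 in the full list, so it was listed in neither. Of the 1013 conservative candidates with a signal at least that of lin-53, 703 (69.4%) were listed. In replicate 1 it was the strongest upstream candidate of the DRM genes, with a signal of 44.7, rank 453 of 38705 and an IDR of 0.217. In replicate 2 it had a signal of 31.3, rank 4860 of 43139 and an IDR of 0.283. The summits were 4 bp apart, the smallest gap among the 5 genes. The region is shared with nra-2, a nicalin gene on the other strand whose start is separated from that of lin-53 by 466 bp, and the summit was 216 bp upstream of nra-2. The gene rba-1, which encodes a related histone-binding protein, lies downstream on the same strand and begins 88 bp after lin-53 ends.

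The gene lin-35 (WBGene00003020, chrI:5807709-5815637, plus strand) encodes the pocket protein, the retinoblastoma relative of the worm. Its upstream candidate had a conservative signal of 66.3, rank 1356 of 54900, an IDR of 0.0134 and a summit 180 bp upstream. With the full list at an IDR of 0.0115, it was the DRM gene closest to the limit among those not listed. In replicate 1 the candidate had a signal of 33.9, rank 840 of 38705 and an IDR of 0.0353. In replicate 2 it had a signal of 35.1, rank 3115 of 43139 and an IDR of 0.662. The summits were 15 bp apart. The start of lin-35 is separated by 417 bp from that of vps-51, a vesicle sorting gene on the other strand, and the summit was 238 bp upstream of vps-51.

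The E2F and DP genes had candidates of ordinary strength. The gene efl-1 (WBGene00001161, chrV:16958590-16965675, minus strand), which encodes the E2F subunit, had a conservative candidate 246 bp upstream with a signal of 37.8, rank 10014 of 54900 and an IDR of 0.672. In replicate 1 it had a signal of 20.01, rank 5676 of 38705 and an IDR of 0.461, and replicate 2 had no upstream candidate. The region is shared with fbxa-90, an F-box gene on the other strand, separated from efl-1 by 1138 bp. Its other 5 conservative candidates lay inside the gene, with signals of 6.71 to 27.7. The gene dpl-1 (WBGene00001061, chrII:9169910-9172565, plus strand), which encodes the DP partner, had a single conservative candidate, 1104 bp inside the gene, with a signal of 39.6 and an IDR of 0.356. An upstream candidate was present in the full list, with a signal of 30.6, an IDR of 0.644 and a summit 195 bp upstream. Replicate 1 had it as well, with a signal of 23.3, an IDR of 0.399 and a summit 205 bp upstream, and replicate 2 did not. The gene T23G7.2 spans all of dpl-1 on the other strand, so every one of these summits was also inside T23G7.2.

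**Figure D2:**
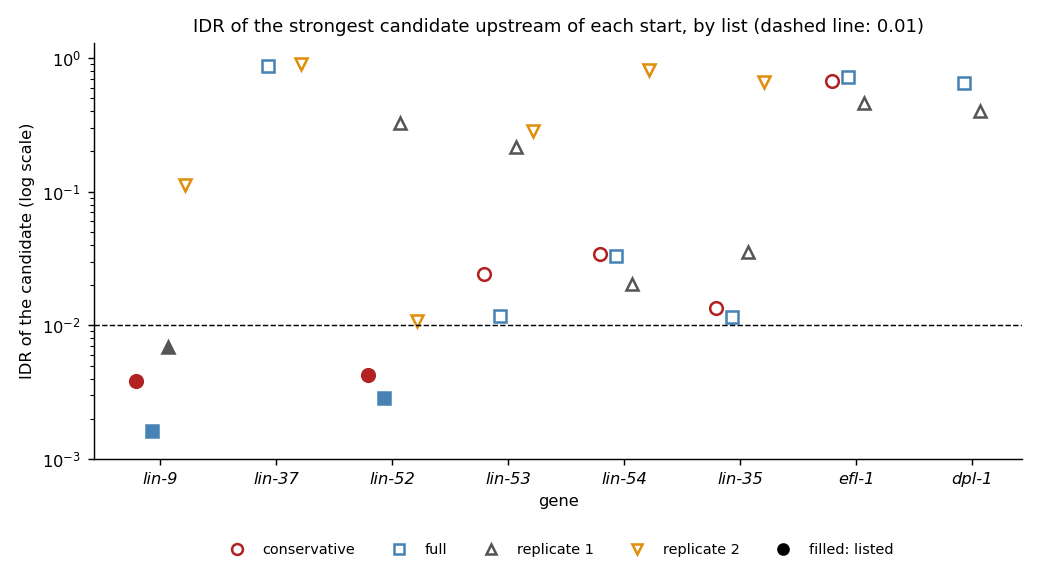
IDR of the strongest candidate from 1000 bp upstream to 100 bp downstream of each DRM gene's start (log scale, lower is more reproducible), in the conservative, full, replicate 1 and replicate 2 lists; filled symbols are listed peaks. The symbols below 0.01 are those of lin-9 in 3 lists and lin-52 in 2, and the replicate 2 symbol of lin-52 lies just above, at 0.0107.

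The plot of IDR by list shows that the members just inside the limit of 0.01 were lin-9 (0.00383) and lin-52 (0.00424) and those just outside it were lin-35 (0.0134) and lin-53 (0.0244), in the conservative list. Replicate 1 had an upstream candidate at 7 members, at ranks of 1.17% to 14.7% of its candidates, and 3 of them had an IDR of at most 0.05. Replicate 2 had one at 6 members, at ranks of 2.45% to 73.7%, and 1 of them, lin-52, had an IDR of at most 0.05. No share over all genes was counted for upstream candidates of a single replicate, so nothing is read from these counts. Of the 5 members with the strongest conservative upstream candidates, lin-9, lin-53, lin-54 and lin-35 ranked better within replicate 1 than within replicate 2, and lin-52 ranked better within replicate 2.

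Each replicate's ranked list also gives the signal in each of the 2 inputs that its IDR compared, called its parts here. A replicate's list came from its own alignments, so these parts are not the 2 biological replicates. The parts of lin-9 were close in replicate 1, at 18.98 and 20.9, and apart in replicate 2, at 27.9 and 16.5. For lin-53 in replicate 1 they were far apart, at 31.8 and 11.3, and its IDR there (0.217) was higher than that of lin-9 (0.00688) although its signal in the whole replicate was higher, 44.7 against 40.1. For lin-52 the parts were 21.3 and 10.6 in replicate 1 and 21.7 and 29.4 in replicate 2. For lin-54 they were 17.1 and 17.7 in replicate 1 and 25.02 and 9.06 in replicate 2. For lin-35 they were 14.97 and 19.1 in replicate 1 and 16.2 and 11.0 in replicate 2. In these 5 genes the pair of parts with the widest gap was thus that of lin-53 within replicate 1 and that of lin-54 within replicate 2.

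**Figure D3:**
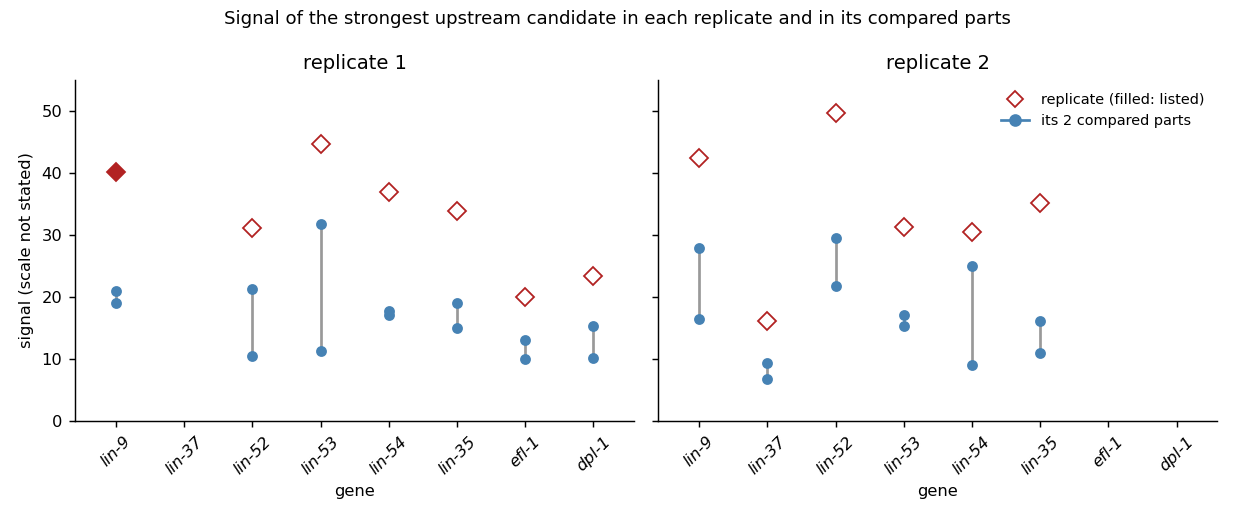
Signal (scale not stated) of the strongest upstream candidate of each DRM gene in replicate 1 and replicate 2 (diamonds, filled where listed) and in the compared parts of that replicate (dots joined by a line). The parts lie close together for lin-9 (18.98 and 20.9) and far apart for lin-53 (31.8 and 11.3) in replicate 1.

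The strongest conservative candidate of each gene was set beside that of every protein-coding gene. The median over the 7 DRM genes with a candidate was 66.3 (quartiles 46.4 and 77.9), and the median over the 14193 of all genes with one was 34.8 (quartiles 27.2 and 44.3). A candidate at least as strong was present at 3.01% of all genes for lin-9, 3.09% for lin-52, 3.78% for lin-53, 5.13% for lin-35 and 9.57% for lin-54. For dpl-1 and efl-1 the shares were 25.3% and 29.0%. The search window had a median of 3507 bp for the DRM genes (1668 to 8929 bp) and 3027 bp for all genes, and its effect was not tested. As the members were selected with these peaks known, nothing is read from the difference in signal.

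**Figure D4:**
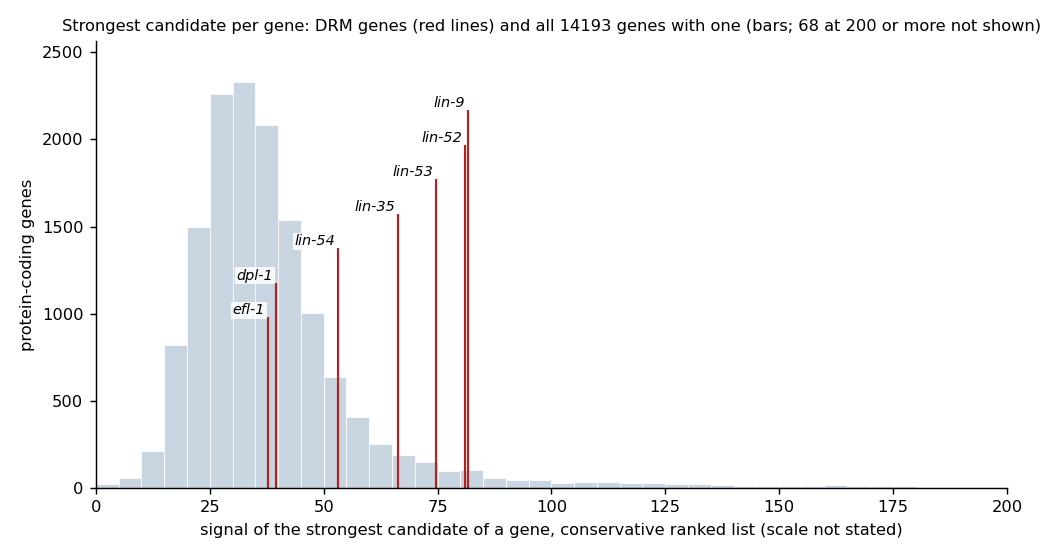
Number of protein-coding genes (vertical axis) by the signal of their strongest conservative candidate (horizontal axis, scale not stated, bins of 5), with the DRM genes as red lines whose heights carry no value. From lin-54 (53.2) up to lin-9 (81.6), 5 DRM genes lie in the upper tail, and efl-1 (37.8) and dpl-1 (39.6) lie near the middle.

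The listed peaks next to lin-9 and lin-52 in rank were chosen for their nearness and are named to place the 2 peaks in the list. The nearest listed peaks in promoter windows (500 bp upstream to 100 bp downstream of a start, 244 of 814 listed peaks) above lin-9 were at F36A2.7 (82.2), upstream of both npp-3 and top-2 (82.0), and at the foregut regulator gene pha-4 (81.8). Those below it were at Y32B12B.4 (81.5), upstream of both daf-31 and nucl-1 (81.5), and at the amino acid transporter gene aat-3 (81.3). Just above lin-52 were aat-3, Y48G10A.2 (81.3) and ecps-1 (81.3), and just below it were ent-6 (80.9), nra-3 (80.6) and cox-5A (80.5). The median signal of all 814 listed peaks was 102, so both DRM peaks were in the weaker part of the list. The nearest tRNA, snoRNA or snRNA gene was 33489 bp from the lin-9 summit and 9620 bp from the lin-52 summit.

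The sequence around the summits was not used to select the genes. For each member the 101 bp centred on the summit of its strongest upstream candidate were searched, from the conservative list or, for lin-37 and dpl-1, from the full list. A CHR word was present in 6 of the 8 windows, those of lin-9, lin-37, lin-52, lin-53, efl-1 and dpl-1. Each match was TTTGAA. At lin-37, efl-1 and dpl-1 the candidate was weak, with an IDR of 0.874, 0.672 and 0.644. Of the members with an IDR of at most 0.05, lin-54 and lin-35 held no CHR word. A CHR word was present in 14.7% of windows at the 814 listed peaks and 18.03% at the 244 listed peaks in promoter windows. The share was 25.7% at all candidates and 34.1% in windows centred 150 bp upstream of all starts. These peaks and candidates were conservative ones, among which lin-37 and dpl-1 had no upstream candidate. The word is rich in A and T, and the median GC content of the 4 sets was 50.5%, 50.5%, 40.6% and 33.7%. Whether the shares follow GC content was not tested. With 301 bp windows 7 of the 8 members held it, and lin-35 did not. The shares of the 4 sets were counted in 101 bp windows only, so nothing is read from the longer windows. An E2F word was present in 1 of the 8 windows of 101 bp, that of efl-1. It was present in 2.95%, 3.69%, 2.50% and 1.93% of the 4 sets in the same order. With 301 bp windows lin-9, lin-53, lin-54 and efl-1 held an E2F word.

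The efl-1 peak, on the minus strand, and the 101 bp around the dpl-1 summit, on the plus strand, are printed with the same capitals, because the E2F and DP genes carried these words at weak candidates.
efl-1 whole peak, chrV:16965783-16966058: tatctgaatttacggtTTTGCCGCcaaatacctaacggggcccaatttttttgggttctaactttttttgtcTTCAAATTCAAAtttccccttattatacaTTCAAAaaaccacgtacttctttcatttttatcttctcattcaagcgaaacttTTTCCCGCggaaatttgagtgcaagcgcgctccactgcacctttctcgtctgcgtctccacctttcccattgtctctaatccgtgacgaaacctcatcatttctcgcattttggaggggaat
dpl-1 summit window, chrII:9169665-9169765: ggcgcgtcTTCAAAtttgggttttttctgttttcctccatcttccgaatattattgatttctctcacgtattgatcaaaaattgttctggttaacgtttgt
The E2F word TTTCCCGC of efl-1 lay 17 to 24 bp from the summit, and a second one, TTTGCCGC, lay farther out in the same peak. The dpl-1 window held 1 CHR word and no E2F word, and its GC content was 35.6%. The windows of the remaining members had a GC content of 39.6% (efl-1 and lin-37), 45.5% (lin-35), 51.5% (lin-53) and 53.5% (lin-54), so the members with an IDR of at most 0.05 had the higher values. No member window of 101 bp held a pair of adjacent telomere repeats TTAGGC, which 7.25% of listed peaks held, or the tRNA promoter word GTTCGANNC, which 14.4% held. With 301 bp windows lin-37, lin-54 and dpl-1 held the tRNA promoter word, and no share of listed peaks was counted at that length.

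Other genes of the pathway, 58 in 6 lists by textbook role, gave the setting. These lists were chosen with earlier results of these data known, so nothing is read from their differences to all genes. A conservative peak was listed at 6 of the 58, against 3.4% of all genes, and a full peak at 9, against 4.45%. A conservative candidate with an IDR of at most 0.05 was present at 12 of the 58, against 5.92% of all genes. Their median strongest candidate was 40.3, over the 56 with one. Among 8 other synMuv B genes, 0 had a conservative listed peak and 2 had a full one. These were lin-61, which encodes a chromatin reader (489 bp upstream, 71.8), and tam-1 (101 bp upstream, 62.5), with conservative IDRs of 0.0111 and 0.0163. Among 4 synMuv A genes none was listed in any list, and lin-38 came nearest with a signal of 60.9 and an IDR of 0.0391. Among 15 replication and mitosis genes, the textbook cell cycle targets of DRM, none was listed in any list, none had an IDR of at most 0.05, and the median strongest candidate was 34.1, against 34.8 over all genes.

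Of the G1 regulators and other E2F genes, 6 of 9 had a conservative candidate with an IDR of at most 0.05, against 5.92% of all genes. As this list too was chosen with earlier results known, nothing is read from the difference. The median strongest candidate of the list was 72.9. The conservative peak at the cyclin E gene cye-1 (351.9) was the strongest of the 58 genes and was listed in all 4 lists. Its summit was in an intron, inside a tRNA gene, 1053 bp downstream of the start. The kinase gene cdk-4 had a conservative listed peak 232 bp upstream (72.9) that was not in the full list, where its IDR was 0.0631. The cyclin D gene cyd-1 had a conservative listed peak in an intron 9590 bp downstream (56.4). Its strongest conservative candidate was another one, 10894 bp downstream (77.1, IDR 0.657), which was not listed. Replicate 2 listed a peak 10891 bp downstream (64.4). The E2F gene efl-3 (93.1, in an intron) and the gene fzr-1 (73.9, 794 bp upstream) were listed in the full list and in replicate 2.

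Among 13 genes of complexes that share LIN-53, the chromatin assembly gene chaf-2 had a conservative listed peak 181 bp upstream (74.2, IDR 0.00835), just under the signal of lin-53 itself (74.7). The zinc finger gene mep-1 (65.1, 168 bp upstream) was listed in the full list and in replicate 1. That summit lay inside the non-coding RNA genes M04B2.11 and M04B2.13. The conservative IDR at mep-1 was 0.0511, and the IDR in replicate 2 was 0.802. Among 9 germline genes and DRM antagonists, mrg-1, a chromodomain gene needed in the germline, had a conservative listed peak 237 bp upstream (110.6). The chromatin regulator gene zfp-1 had one in an intron, 10534 bp downstream (118.0), which was listed in all 4 lists.

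**Figure D5:**
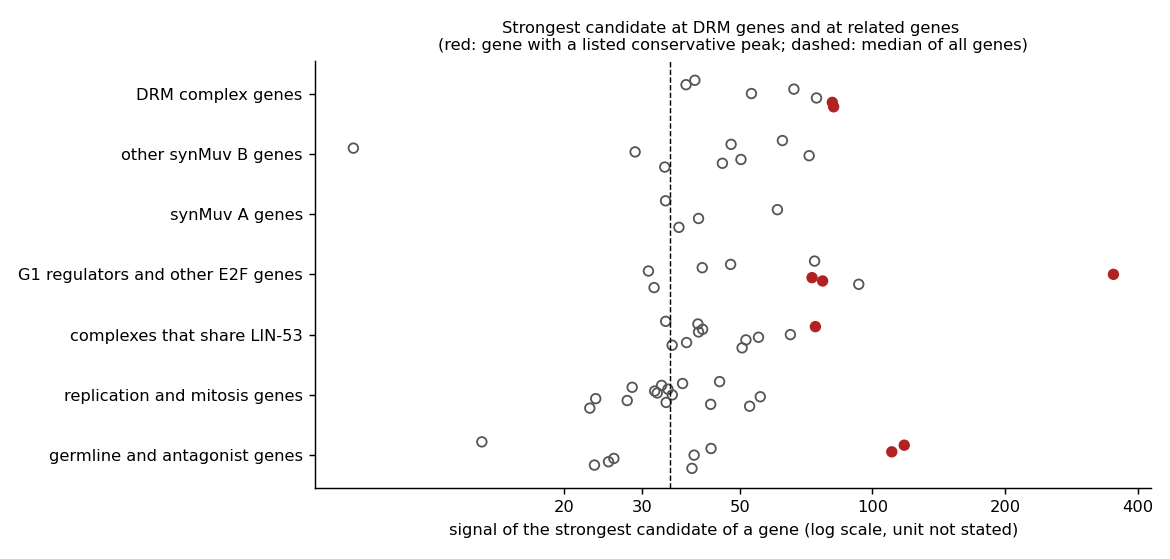
Signal of the strongest conservative candidate of each gene (log scale, unit not stated) for the DRM genes and 6 lists of related genes, one point a gene, red where the gene has a listed conservative peak; the dashed line is the median of all genes (34.8). The DRM genes lie from 37.8 to 81.6, all to the right of the line, and 7 of the 8 have a point. The red point of cyd-1 (77.1) is a candidate that was not itself listed.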

How the data were processed

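ChIP-seq peak lists of tagged ZTF-29 in 2 biological replicates of 1 group of embryos were used as deposited. Per the deposited readme, each replicate's lists came from its own alignments and the conservative and full lists from those of both replicates, on ce11. The sources used here do not give the aligner, the peak caller or the role of the named control. The authors' signal per peak has no stated scale. A deposited score encodes the IDR with a ceiling of 1000. In the ranked lists a second deposited score holds the global IDR as its negative log10, capped at 5, and the IDR was computed from it here.

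Summits were placed on WBcel235 (ce11) with the genes of Ensembl release 115, and sequences were read from RefSeq's copy. Annotated starts can be trans-splice sites. Peaks had nearly fixed widths (median 276 bp in the conservative list), with the summit at mid-peak in 86.6% of listed ones, which limits positions. No annotation of operons was used, so close neighbours on a strand are named only as such. The 8 members and the pathway lists were chosen with earlier results of these data known. The named genes were the members, genes with a start near a listed member peak or that share a member's upstream region, pathway genes with a listed conservative or full peak (up to 5 a list), and the 3 nearest promoter peaks in rank on each side of lin-9 and lin-52; lin-38, and the overlapping or close neighbours T23G7.2, ZK418.5, rba-1 and unc-32, were named after the values were seen. With 1 group there was no comparison of conditions and no test. Placement was tested on simulated data, where 200 of 200 planted summits were recovered. Alternatives were other lists, windows, overlap rules and limits, and each replicate alone. Python 3.11.15, numpy 2.4.6, pandas 2.3.3 and matplotlib 3.10.9 were used.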

Additional observations from a re-analysis of the deposited data

How the results depend on the processing

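The number of DRM genes with a listed peak was 2 and ranged from 0 to 1 in the list of a single replicate. It was 0 in the better part of the conservative list by signal, which keeps only peaks above the median, and 5 with candidates up to an IDR of 0.05. It stayed at 2 with the full list, the other windows and the overlap rule. The number with a candidate was 7 and ranged from 6 to 8 over its alternatives. As a percentage of listed peaks, the rank of lin-9 was 74.6% in the conservative list and 61.1% in the full list, and that of lin-52 was 75.9% and 62.7%; the full list is the longer one. As a percentage of candidates, the rank of lin-9 was 1.505%, and 1.51% to 3.71% with a single replicate. That of lin-52 was 1.54%, and 2.45% to 2.80% with a single replicate. CHR words near the summit were found in 6 members, and in 7 with the wider window, for which no share over all peaks was counted. The cause of these shifts was not tested. No paired analysis was possible because the series has a single group. Read depth is unknown and the replicates' signals, on no stated scale, were not averaged, so that a missing peak says only that none was listed.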

Other observations

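One word of 6 bases other than TTTGAA was shared by at least 4 of the 8 windows of 101 bp at the DRM genes. It was AAAACC, searched on both strands, in the windows of lin-37, lin-53, efl-1 and dpl-1. It was present in 8.11% of windows at listed conservative peaks, 9.43% at those in promoter windows, 10.8% at all candidates and 12.2% of windows upstream of all starts. This word was chosen after the sequences were seen, and it was not tested.

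The gene chaf-1, which encodes a subunit of the chromatin assembly factor that contains LIN-53, had a listed peak in both replicates and in neither list made from both. The summit was in its 3' UTR, 2451 bp downstream of the start in replicate 1 (52.5, IDR 0.000223) and 2455 bp in replicate 2 (73.2, IDR 0.00174). In the conservative list its strongest candidate was elsewhere, 725 bp upstream, with a signal of 41.2 and an IDR of 0.489. The gene was picked out after its values were seen.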
